A study of Mus musculus with 2 samples.

Results

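Somatotropes are the growth hormone cells of the anterior pituitary. They were taken here as cells in which the growth hormone transcript Gh made up over 30% of all unique molecular identifiers (UMIs, 1 for each captured transcript), and in which the transcripts of the other pituitary hormones were low. Prl, the prolactin transcript, had to be below 10%, Pomc, the precursor of corticotropin and melanotropin, below 1%, and Cga, the alpha subunit of the glycoprotein hormones, below 1%. Tshb, the beta subunit of thyrotropin, had to be below 10 UMIs, and 8 genes of dividing cells together below 6 UMIs. This gave 6932 cells of 13565 that had 250 or more genes and no more than 20% of UMIs from mitochondrial genes, out of 13663 barcodes in all. Library 1 held 3474 of 6505 cells, or 53.4% (exact binomial 95% interval 52.2 to 54.6), and library 2 held 3458 of 7060, or 49.0% (47.8 to 50.2).

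The cells came from the pituitary glands of C57BL/6 mice, an inbred strain, all male and 7 weeks old, housed singly and with no treatment. There were 2 pools of 3 glands, each dispersed with enzymes for 4 h at 37 °C and made into 1 droplet library, so a library averages 3 animals and n = 2 throughout. Groups were cell classes within these libraries: somatotropes, other cells rich in Gh, lactotropes (prolactin cells), gonadotropes, corticotropes and melanotropes. Pairs of values below are library 1 and then library 2.

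Growth hormone-releasing hormone from the hypothalamus acts on somatotropes through its receptor, Ghrhr, which raises cyclic AMP by way of a stimulatory G protein and thereby drives growth hormone release and Gh transcription. Somatostatin acts through its own receptors in the opposite sense. The pituitary transcription factor Pou1f1 specifies somatotropes, lactotropes and thyrotropes, and binds the Gh and Prl promoters. Growth hormone raises insulin-like growth factor 1 (IGF1), and both feed back on the gland.

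Of the genes given as markers of the class, Ghrhr lies at chr6:55376295-55388530 on the plus strand and Pou1f1 at chr16:65520511-65535005 on the plus strand. Pappa2, a metalloproteinase that cleaves IGF-binding proteins, lies at chr1:158711727-158980490 on the minus strand. Ppp1r14a, an inhibitor of myosin phosphatase, lies at chr7:29289308-29293801 on the plus strand, and Dlk1, an imprinted membrane protein related to the Notch ligands, at chr12:109452823-109463336 on the plus strand. These positions are from GENCODE on GRCm38. The 250 bases before the RefSeq transcription start are printed here for the 4 of these genes with an entry in RefSeq's promoters of GRCm38.p6, read 5′ to 3′ along the gene, because these genes were high together. Capitals mark ATGNATA, the core letters of the site that POU1F1 binds, or TATNCAT, the same letters on the other strand.
Pou1f1, chr16:65520262-65520511, plus strand: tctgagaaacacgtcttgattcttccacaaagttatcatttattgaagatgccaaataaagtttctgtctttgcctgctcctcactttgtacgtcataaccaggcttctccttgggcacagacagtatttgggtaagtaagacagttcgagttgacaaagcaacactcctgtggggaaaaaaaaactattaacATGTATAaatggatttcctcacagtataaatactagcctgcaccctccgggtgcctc
Pappa2, chr1:158958176-158958425, minus strand: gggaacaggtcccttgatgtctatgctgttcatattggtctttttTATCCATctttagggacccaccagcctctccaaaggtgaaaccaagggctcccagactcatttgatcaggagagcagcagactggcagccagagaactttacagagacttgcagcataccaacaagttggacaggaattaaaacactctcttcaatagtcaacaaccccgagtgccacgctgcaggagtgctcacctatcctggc
Ppp1r14a, chr7:29289070-29289319, plus strand: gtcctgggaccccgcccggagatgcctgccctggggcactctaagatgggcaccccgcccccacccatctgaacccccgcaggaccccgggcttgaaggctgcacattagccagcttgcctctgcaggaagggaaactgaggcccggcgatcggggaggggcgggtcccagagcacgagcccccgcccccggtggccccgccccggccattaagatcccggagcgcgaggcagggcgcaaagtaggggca
Dlk1, chr12:109452573-109452822, plus strand: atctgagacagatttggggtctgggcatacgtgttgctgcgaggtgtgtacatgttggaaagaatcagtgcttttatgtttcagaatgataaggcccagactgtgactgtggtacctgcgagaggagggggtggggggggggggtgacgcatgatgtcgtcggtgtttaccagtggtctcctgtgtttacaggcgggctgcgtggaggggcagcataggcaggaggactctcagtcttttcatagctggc
The Pou1f1 window held 1 match, which began 57 bases before the start, while the window of a second Pou1f1 start in the table, chr16:65523059-65523308, held none. The Pappa2 window held 1 match, 205 bases before its start. That window lies inside the GENCODE interval of the gene, whose 5′ end on the minus strand is at 158980490. Its RefSeq start is therefore not the outermost start given above. The windows of Ppp1r14a and Dlk1 held none. Among the 5 markers and the genes that stood furthest above the other classes, 10 genes had 15 windows, of which 2 held the letters, or 13.3%, while 2603 of 32851 windows of all genes, 7.92%, did. Gh, Ghrhr and Wfdc1 had no promoter entry, so no window of these genes was read.

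In somatotropes the median Gh share was 62.1 and 61.3% of all UMIs, with single cells between 30.1 and 86.3% in library 1 and between 30.2 and 81.3% in library 2. The median Prl share was 0.222 and 0.249%. Tshb had no UMI in 2599 cells of library 1, or 74.8%, and in 2464 of library 2, or 71.3%. These are values that chose the cells. Around the limits, 40 cells had a Gh share between 30 and 32% and 29 between 28 and 30%, and 20 had a Prl share between 8 and 10% and 12 between 10 and 12%. There were 3 cells with 8 or 9 Tshb UMIs and 10 with 10 or 11. Of 7259 cells with over 30% Gh, 76 were set aside for Prl, 32 for Pomc, 44 for Cga, 26 for Tshb and 161 for the dividing-cell genes, and some cells failed more than 1 limit.

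The median somatotrope had 12862 and 13807.5 UMIs and 2096.5 and 2155 genes. Since Gh filled most of that, it had 4930 and 5222.5 UMIs outside Gh and Prl. All levels are in CPM, here the UMIs of a gene summed over the cells of a class in a library and set to a common total of UMIs outside Gh and Prl. Unless called unscaled, that total was scaled by the trimmed mean of M-values (TMM), which evens out differences in composition. Summed in this way, somatotropes had 17306853 and 18623777 UMIs. Of 2613 genes at 50 or more CPM, 0 differed 2-fold between the libraries. The libraries shared 54 barcode sequences, of which 24 in library 1 and 21 in library 2 were somatotropes, 7 of them in both. In the authors' t-SNE projection, a map that places like cells together, 95.6 and 96.5% of the 15 nearest neighbours of a somatotrope were somatotropes, against 1.47 and 1.91% of those of a lactotrope.

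**Figure D1:**
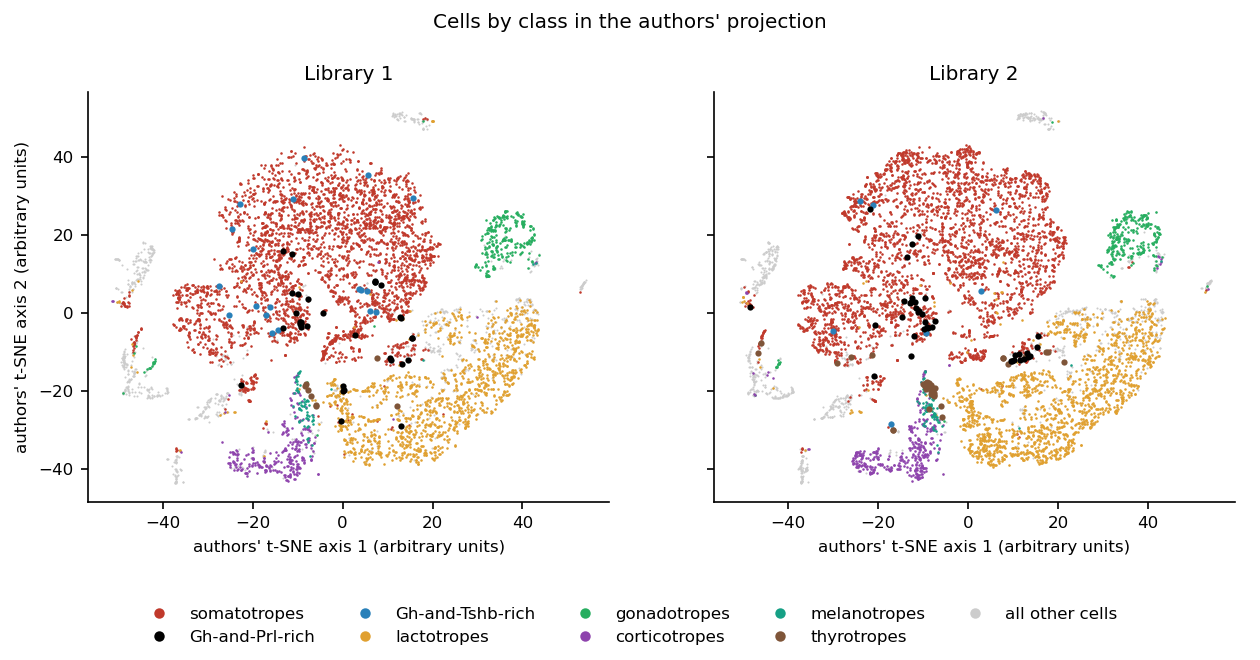
The authors' t-SNE projection of the cells of library 1 (left) and library 2 (right), both axes in arbitrary units, coloured by class. Somatotropes form the large upper body, and the 33 and 38 Gh-and-Prl-rich cells lie at its lower edge and towards the lactotropes.

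All 6 markers had UMIs in both libraries of somatotropes. They were chosen for this class with results of these data known, so their levels across classes are given as a description with no test. Ghrhr was at 237 and 219 CPM in somatotropes, against 2.43 to 6.08 CPM over the libraries of lactotropes, gonadotropes, corticotropes and melanotropes. Pappa2 was at 89.5 and 113 CPM, against 1.02 to 4.04. Ppp1r14a was at 215 and 181 CPM in somatotropes, against 4.04 to 16.2 in those 4 classes, although endothelial cells held 128 and 110 CPM on the unscaled measure, where somatotropes held 249.6 and 208. For these 3 genes somatotropes were far above every library of those 4 classes, while the Gh-and-Prl-rich and Gh-and-Tshb-rich cells, given further on, came nearer. On the unscaled measure Pappa2 was at 104 and 130 CPM in somatotropes, against 72.9 and 86.04 in Gh-and-Prl-rich cells and 52.8 and 141 in Gh-and-Tshb-rich cells, the last from 7 UMIs in each library. Dlk1 was the most graded of the markers, with 6239 and 6442 CPM in somatotropes, 1464 and 1351 in lactotropes, 753 and 511 in corticotropes, 112 and 234 in melanotropes and 116 and 130.0 in gonadotropes. Pou1f1 was at 271 and 281 CPM in somatotropes and higher in lactotropes, at 493 and 451. It was at most 8.07 CPM in gonadotropes, corticotropes and melanotropes, so it parts the somatotrope and lactotrope classes from these rather than marking somatotropes alone.

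Per cell, with each cell thinned to 1000 UMIs outside Gh and Prl, 23.1 ± 0.467% of somatotropes held a Ghrhr UMI (SD, n = 2), against 0.8% of endothelial cells, which should lack it and show the level of free RNA. Without thinning the share was 67.9% in somatotropes and 2.53% in endothelial cells, whose median depths outside Gh and Prl were 5092.5 and 4416 UMIs over both libraries. Thinning left out 99 and 16 of the somatotropes as too shallow. Dlk1 was held by 99.6% of thinned somatotropes and 8.13% of endothelial cells, and Pappa2 by 10.4 and 0%. For Ppp1r14a the shares were 20.1 and 10.7%, so detection in single cells separated these classes least for this gene.

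**Figure D2:**
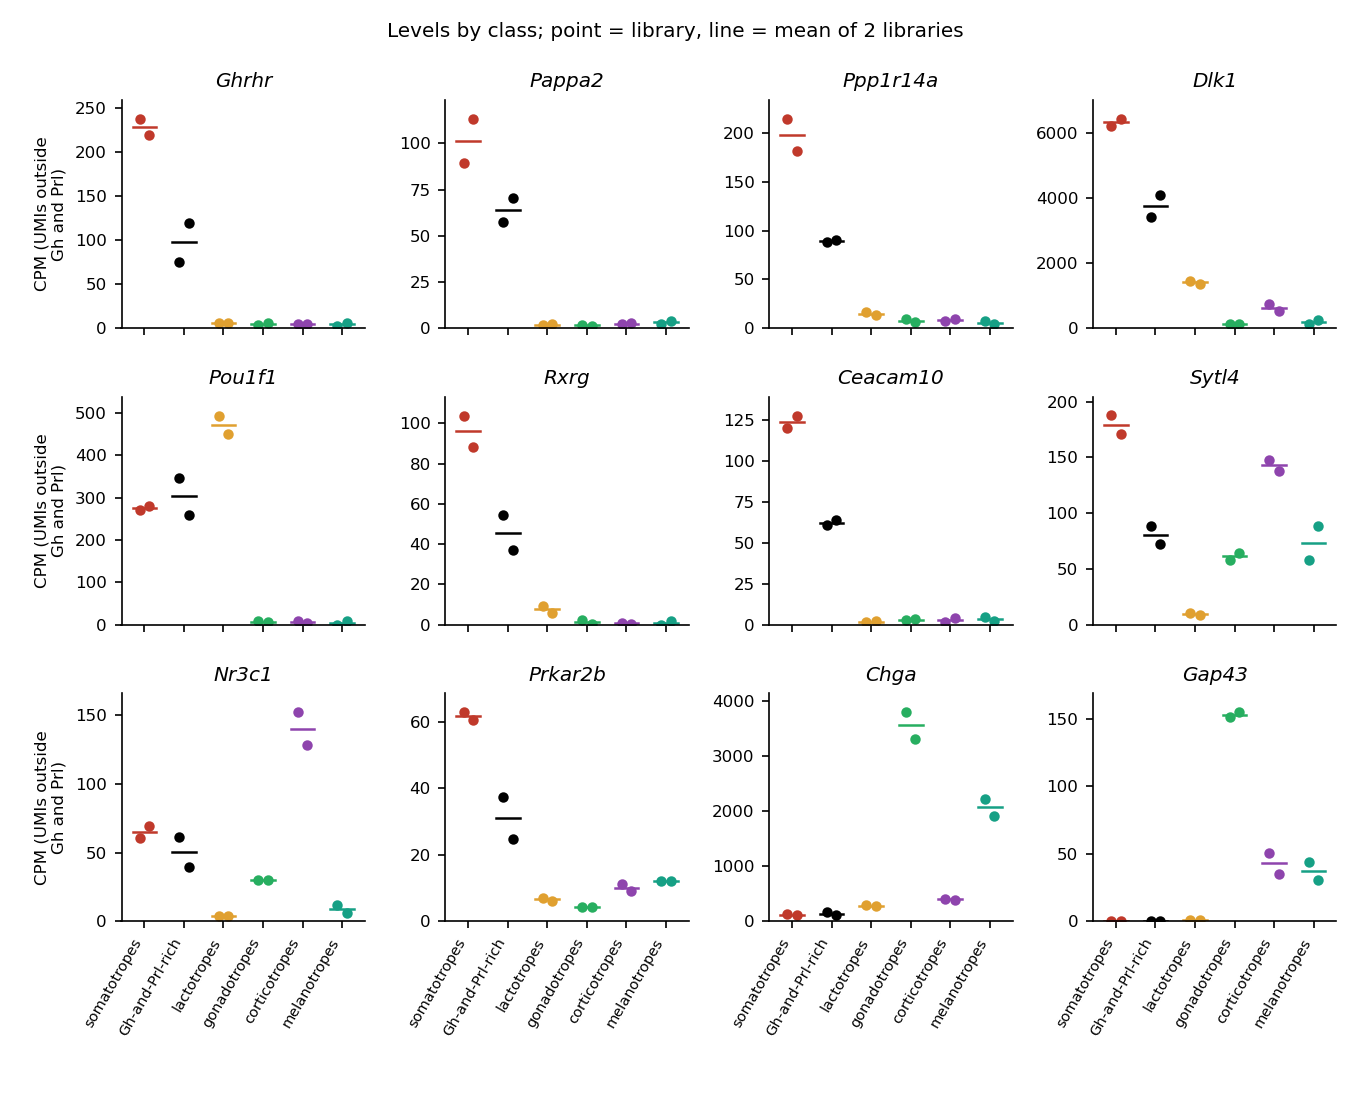
Levels of 12 genes in CPM outside Gh and Prl, TMM-scaled, by hormone class. Each point is a library and each line the mean of 2 libraries, and Ghrhr, Pappa2 and Ceacam10 are near 0 in the 4 classes without much Gh, while Sytl4 and Nr3c1 are also high in corticotropes.

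To find what sets somatotropes apart, they were compared with the equally weighted mean of lactotropes, gonadotropes, corticotropes and melanotropes. Each log2 fold change is a difference of mean log2 levels. The ± beside it is a standard error worked back from the test, as the size of the change over the square root of its F statistic. It was not estimated apart from the test, and similar values can go with unlike p. Each adjusted p comes from the quasi-likelihood test of edgeR, adjusted over all genes by Benjamini-Hochberg. Of 12251 genes tested, 3440 were higher in somatotropes (28.1%) and 2455 lower (20%), 48.1% in all, so a call by itself was common. Differences of at least 2-fold in genes at 50 CPM or more were rarer, with 132 genes higher and 164 lower. With no more than 2 pools, and library as a term of the fit, p-values measure the scatter left after any shift common to a library. They do not measure the spread between animals.

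The genes that stood highest over the other classes included a nuclear receptor, a secreted signal and several membrane proteins. Rxrg, the retinoid X receptor gamma, was at 104 and 88.4 CPM in somatotropes, against at most 9.24 in any library of the other 4 classes (log2 fold change 5.90 ± 0.16, adjusted p = 2.93e-44). Dapl1, which encodes a small protein related to death-associated protein, was at 573 and 656 CPM, against 5.18 to 45.8 (5.50 ± 0.08, adjusted p = 2.74e-62). Ceacam10, of the carcinoembryonic antigen family of adhesion molecules, was at 120 and 128 CPM, against 1.39 to 4.87 (5.49 ± 0.12). Its family holds near-identical copies, so its reads may be split among them. For these 3 genes somatotropes were far above the 4 classes in both libraries. Gh-and-Prl-rich cells came nearer, at 54.2 and 37.2 CPM of Rxrg, 325 and 299 of Dapl1 and 61.0 and 64.0 of Ceacam10. Thinned to 2000 UMIs outside Gh and Prl, 19.8% of somatotropes, 21.8% of the 26 Gh-and-Tshb-rich cells and 12.5% of the 48 thyrotropes held Rxrg. Thinned to 1000, these shares were 10.3, 13.2 and 1.25%.

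Car10, a carbonic anhydrase-like protein without the enzyme's activity, had 2811 UMIs in somatotropes and 66 in the other 4 classes together, with 0 in melanotropes. Its level was 32.3 times as high in somatotropes over all cells (exact 95% interval 25.3 to 41.8, counting error only). Atg9b, an autophagy protein of membranes, was at 76.1 and 70.7 CPM, against 0.513 to 4.94 (log2 fold change 5.09 ± 0.15). Wnt10a, a secreted WNT ligand, was at 67.9 and 78.8 CPM, against 0.370 to 12.2 (4.46 ± 0.13). Wfdc1, a secreted protein of the whey acidic protein family, Nqo1, a quinone reductase, and Arhgap36, a protein known to inhibit protein kinase A, rose by 4.44, 3.92 and 3.83 on the log2 scale. Arhgap36 was the least confined of them, with up to 39.6 CPM in corticotropes, against 99.9 and 105 in somatotropes.

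Over the next highest of the 4 classes, somatotropes had 38.7 times as much Ghrhr, 36.1 times as much Ceacam10 and 31.3 times as much Pappa2. The ratio was 22.9 for Car10, 14.9 for Atg9b, 13.8 for Dapl1, 13.4 for Ppp1r14a, 12.6 for Rxrg and 10.4 for Wfdc1. Gpr153, a receptor with no known ligand, closed the 10 genes with the largest ratio at 8.32. The next class was lactotropes for Ghrhr and melanotropes for Ceacam10 and Pappa2.

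The genes that stood furthest below the other classes included a ligand of the Notch family and genes of neurons. Gap43, a protein of growth cones, was at 0.546 and 0.468 CPM in somatotropes, against 151 and 155 in gonadotropes, although lactotropes held as little as 0.633 and 1.10 (log2 fold change −5.35 ± 0.30). Dll3, a ligand of the Notch family, was at 0.199 and 0.140 CPM, against 3.51 to 77.9 (−6.02 ± 0.35). Dll3 was thus lower than in every library of the 4 classes, while the low Gap43 was shared with lactotropes.

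The synaptic vesicle protein gene Syn2 (−4.26 ± 0.25), the GABA receptor subunit gene Gabra2 (−4.24 ± 0.42) and Lrp1b, a large receptor of the LDL receptor family (−4.47 ± 0.22), also fell in somatotropes. Ptgds, a prostaglandin D synthase, was at 2.14 and 1.31 CPM, against 10.8 to 151 (−4.72 ± 0.15). Lgals1, which encodes galectin-1, was at 9.19 and 6.22 CPM in somatotropes, against 718 and 573 in melanotropes and 42.6 to 160 in the other 3 classes (−4.25 ± 0.10). The list closes with Pabpc1l, a poly(A)-binding protein (−5.05 ± 0.13), and Lrrn2, a leucine-rich repeat neuronal protein (−4.65 ± 0.32). Each of these genes had a lower mean in somatotropes than in every one of the 4 classes, but by little for Gabra2 against gonadotropes (0.725 and 0.894 CPM), Gap43 against lactotropes (0.507 and 0.868) and Lrrn2 against lactotropes (0.579 and 0.680).

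A set of 11 gene lists for pathways and functions of a pituitary cell was then read against this background of 28.1% higher and 20% lower. Lists are described by counts and medians, with no test of a list, beside a median log2 fold change of 0.07 over all genes tested. Without the TMM factor that median was 0.40, so calls near 0 depend on the scaling, and the counts without it are given where they differ most.

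Of the 34 genes between the GHRH receptor and cyclic AMP, 31 were tested, and 11 rose and 10 fell (median 0.08). Prkar2b, a regulatory subunit of protein kinase A, was at 63.1 and 60.6 CPM in somatotropes, against 4.4 to 12.2 over the libraries of the other 4 classes (log2 fold change 2.99 ± 0.12, adjusted p = 4.96e-35). Adcy2, an adenylate cyclase, had 641 UMIs in somatotropes, against 50 in the other 4 classes, of which 18 and 23 were in corticotropes. Set to CPM, these classes were close: 13.6 and 17.2 in somatotropes, against 12.5 and 11.8 in corticotropes. Lactotropes, gonadotropes and melanotropes held at most 0.740 CPM. Over the equally weighted mean, Creb3l1, a transcription factor of the CREB family, rose by 1.73 ± 0.17. The cyclic AMP response gene Crem rose by 0.43 ± 0.06. Both overlapped another class: Creb3l1 was at 15.9 and 28.7 CPM, against 17.5 and 21.2 in lactotropes. Crem was at 126 and 158, against 141 and 172 in melanotropes. Gnas, the stimulatory G protein subunit that couples GHRH receptors to cyclase, was lower, at 4993 and 4677 CPM, against 6347 to 9412 (−0.72 ± 0.04, adjusted p = 3.6e-29). Rgs4, which shortens signals of inhibitory G proteins, was at 2.19 and 2.57 CPM, against 325 and 331 in gonadotropes and 1.52 and 1.90 in lactotropes (−3.52 ± 0.18). Without the TMM factor 16 of the 31 rose and 4 fell.

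Of 37 receptors of hormones and neurotransmitters, 17 were tested, and 4 rose and 4 fell (median −0.51). The receptors that rose were 3 for somatostatin, the inhibitor of growth hormone release, and that for prolactin. Sstr5 had 762 UMIs in somatotropes, against 9 in the other 4 classes, a ratio of 64.1 (exact 95% interval 33.6 to 141). Sstr2 had 547 UMIs, against 9, a ratio of 46.0 (24.1 to 101). Both were at 0 UMIs in melanotropes, and Sstr2 also in corticotropes. These ratios leave out the Gh-and-Prl-rich cells and the classes rich in Tshb. Gh-and-Prl-rich cells held 10.2 and 12.4 CPM of Sstr5, from 3 and 6 UMIs, against 18.1 and 18.6 in somatotropes. With cells thinned to 1000 UMIs outside Gh and Prl, Sstr2 was held by 1.24% of somatotropes, 16.9% of Gh-and-Tshb-rich cells and 7.5% of thyrotropes. Thinned to 2000, these library means were 2.97, 10.1 and 2.5%. Gh-and-Tshb-rich cells and thyrotropes numbered only 26 and 48, and whether Sstr2 is particular to somatotropes was not tested. Sstr3 was at 13.9 and 13.0 CPM, against 21.8 and 22.3 in gonadotropes and at most 3.31 in the other 3 classes (1.88 ± 0.25, adjusted p = 2.21e-09), so it was not highest in somatotropes. Prlr was at 85.99 and 98.2 CPM, against 24.3 to 66.0 (1.30 ± 0.08). The GABA-B receptor subunit Gabbr1 fell by 0.51 ± 0.10, a call that was lost without the TMM factor. With the 4 classes summed in place of averaged, 5 of the receptors rose and 13 fell.

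Among 27 nuclear receptors tested of 29, 9 rose and 8 fell (median 0.16), and without the TMM factor 14 rose and 6 fell. Nr3c2, the mineralocorticoid receptor, was at 23.2 and 23.6 CPM in somatotropes, against 0 to 11.3 (log2 fold change 2.93 ± 0.20). Nr3c1, the glucocorticoid receptor, was at 60.5 and 69.5 CPM in somatotropes, against 152 and 128 in corticotropes, 30.4 and 29.8 in gonadotropes and 3.80 and 3.71 in lactotropes (1.75 ± 0.11). Rorb, an orphan receptor of the ROR family, was at 16.2 and 20.2 CPM, against 16.6 and 23.1 in lactotropes and 54.4 to 102 in the other 3 classes (−1.64 ± 0.10). Somatotropes thus stood second to corticotropes for Nr3c1 and close to lactotropes for Rorb.

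The growth hormone and IGF axis had the highest median of the lists, 0.42, with 11 of 23 tested members higher and 3 lower. Igf1 itself was at 24.7 and 16.5 CPM, against 0.401 to 8.07 (2.99 ± 0.20, adjusted p = 4.38e-21). Cish, a feedback inhibitor induced by growth hormone and prolactin receptors, was at 24.7 and 21.8 CPM, against 2.43 to 22.9, and rose by 1.23 ± 0.17, with corticotropes of library 1 within the somatotrope range. Pappa, a relative of Pappa2 that also cleaves an IGF-binding protein, had 263 UMIs in somatotropes, against 3 in the other 4 classes, all of them in lactotropes, a ratio of 66.4 (exact 95% interval 22.5 to 324). Stc2, whose protein inhibits these proteases, was at 0.298 and 0.328 CPM, against 1.39 to 21.9 (−4.41 ± 0.39). The count includes Pappa2, which was given as a marker.

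Of 41 pituitary transcription factors, 31 were tested, and 6 rose and 17 fell (median −0.76, the lowest of the lists). The 6 include Pou1f1, whose call rests on the equal weighting of the classes: with the 4 classes summed, in which lactotropes prevail, its log2 difference was −0.14. Neurod4, a proneural factor, had 1133 UMIs in somatotropes and 482 in the other 4 classes, of which 185 and 273 were in lactotropes, and its level of 26.0 and 28.6 CPM overlapped that of lactotropes, 23.4 and 27.4. Foxo1, a forkhead factor that insulin and IGF signalling holds out of the nucleus, was at 49.0 and 52.2 CPM, against 15.5 to 47.2 (0.84 ± 0.09). Insm1, a zinc finger factor of endocrine cells, rose by 0.38 ± 0.08, but at 63.0 and 73.8 CPM overlapped gonadotropes, at 65.5 and 58.2.

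Among those that fell, Lhx3, a LIM factor of early pituitary development, was at 13.3 and 12.5 CPM, against 39.5 to 106 (log2 fold change −2.36 ± 0.11, adjusted p = 1.06e-30). Sox4 was at 33.4 and 39.8 CPM, against 70.7 to 202 (−1.63 ± 0.08). Six6, a homeobox factor, was at 96.7 and 94.2 CPM in somatotropes, against 591 and 558 in lactotropes and 95.1 and 80.9 in gonadotropes (−1.09 ± 0.06). Pitx1, which acts in all anterior pituitary lineages, fell by 0.70 ± 0.09. Lhx3 and Sox4 were lower than in every library of the 4 classes.

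Of 23 imprinted genes tested out of 28, 13 rose and 6 fell (median 0.28), a share of higher calls above the background, though with the 4 classes summed 10 rose and 10 fell. Beside Dlk1, Grb10, an adaptor that dampens insulin and IGF receptor signalling, was at 51.3 and 47.3 CPM, against 0 to 6.29 (4.29 ± 0.17, adjusted p = 4.49e-34). Gh-and-Prl-rich cells, outside that comparison, held 44.1 and 20.6 CPM of Grb10, from 13 and 10 UMIs. Plagl1, a zinc finger factor, was at 310 and 388 CPM, against 73.6 to 165 (1.62 ± 0.06). Zdbf2 rose by 1.05 ± 0.08, but at 74.2 and 99.2 CPM in somatotropes overlapped corticotropes, at 89.6 and 87.7. Nap1l5 fell by 0.51 ± 0.05, and Mest by 0.40 ± 0.06, a call that was lost without the TMM factor.

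Of 38 tested genes of the secretory granule and exocytosis 6 were higher and 18 lower (median −0.23), and 14 did not pass, but without the TMM factor 15 were higher and 12 lower. Chga, the granule protein chromogranin A, was at 127 and 107 CPM in somatotropes, against 3790 and 3309 in gonadotropes, 2210 and 1916 in melanotropes and 270.2 to 410 in lactotropes and corticotropes (−3.03 ± 0.06, adjusted p = 4.32e-55). Scg2, secretogranin II, was at 389 and 418 CPM, against 1098 to 13552 (−2.69 ± 0.10). Scg5, a chaperone of a prohormone convertase, and Pcsk1n, a convertase inhibitor, fell by 1.14 ± 0.05 and 0.71 ± 0.04. Against these, Sytl4, which encodes granuphilin, a docking protein of granules, was at 188 and 171 CPM, against 148 and 138 in corticotropes and 8.72 to 88.8 in the other 3 classes (1.83 ± 0.07). Syt7, a calcium sensor for exocytosis, rose by 1.30 ± 0.09, and Rab3d, a GTPase of secretory granules, by 0.99 ± 0.10. Rab3d, at 41.2 and 52.4 CPM, overlapped melanotropes, at 38.9 and 44.4.

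Of 26 potassium channel genes tested, 12 rose and 7 fell (median 0.16). Kcnk2, a background potassium channel that cyclic AMP signalling closes, was at 224 and 201 CPM, against 196 and 176 in corticotropes and 0 to 85.9 in the other 3 classes (2.03 ± 0.09, adjusted p = 7.98e-25). Kcnmb2 and Kcnmb4, regulatory subunits of the large-conductance calcium-activated channel, rose by 2.99 ± 0.15 and 1.86 ± 0.09. Kcnmb2 was at 43.6 and 36.1 CPM, against 33.3 and 27.7 in corticotropes. Kcnmb4, at 73.3 and 83.5 CPM, overlapped melanotropes, at 77.9 and 72.7. Kcna5 and the small-conductance channel Kcnn2 rose by 1.5 ± 0.13 and 1.51 ± 0.17, and Kcnc1 fell by 2.24 ± 0.24. Of 26 calcium, sodium and chloride channel genes, 5 rose and 11 fell (median −0.44). Cacna1h, a T-type calcium channel, had 430 UMIs in somatotropes, against 4 in the other 4 classes, a ratio of 81.4 (exact 95% interval 31.6 to 300.3). The sodium channel Scn8a rose by 1.2 ± 0.12.

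Genes of protein folding in the endoplasmic reticulum and its stress response rose in 21 of 31 cases and fell in 3 (median 0.35), the highest share of higher calls among the lists. Without the TMM factor 28 rose and 1 fell, and with the 4 classes summed 14 rose and 10 fell. Ddit3, a transcription factor induced by endoplasmic reticulum stress, was at 198 and 233 CPM in somatotropes, against 240 and 284 in corticotropes and 58.4 to 132 in the other 3 classes (0.99 ± 0.07, adjusted p = 3.55e-19). Against the mean of the 4 classes Herpud1, which takes part in the degradation of misfolded proteins, rose by 0.73 ± 0.07. The stress factor Xbp1 rose by 0.57 ± 0.06 and Sec61b, of the channel into the endoplasmic reticulum, by 0.49 ± 0.04. Somatotropes were not above every class. Herpud1 was at 227 and 236 CPM, against 215 and 255 in lactotropes and 242 and 214 in corticotropes. In lactotropes Xbp1 was at 229 and 246 CPM, against 221 and 237 in somatotropes, and Sec61b at 1097 and 1151, against 1061 and 1058. Calr, the chaperone calreticulin, fell by 0.43 ± 0.05, a call that was lost without the TMM factor, and Sdf2l1 by 0.56 ± 0.10. Of 21 immediate early genes, which cells switch on within minutes of a stimulus, 7 rose and 4 fell (median 0.21). This balance depended on the setting. With somatotropes limited to over 50% Gh, 4 rose and 8 fell (median −0.17), and with the 4 classes summed 7 rose and 10 fell. Without the TMM factor 12 rose and 2 fell, and without the library term 4 rose and 2 fell. Over the equally weighted mean Egr2 rose by 1.53 ± 0.26 and Jund by 0.35 ± 0.06, although corticotropes overlapped or exceeded somatotropes: Egr2 was at 8.84 and 10.2 CPM in somatotropes, against 9.72 and 21.5 in corticotropes, and Jund at 543 and 791, against 762 and 1070. In the other direction, Egr4 fell by 3.24 ± 0.42 and Btg2 by 0.57 ± 0.17. The calls of Jund and Btg2 were lost without the library term.

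**Figure D3:**
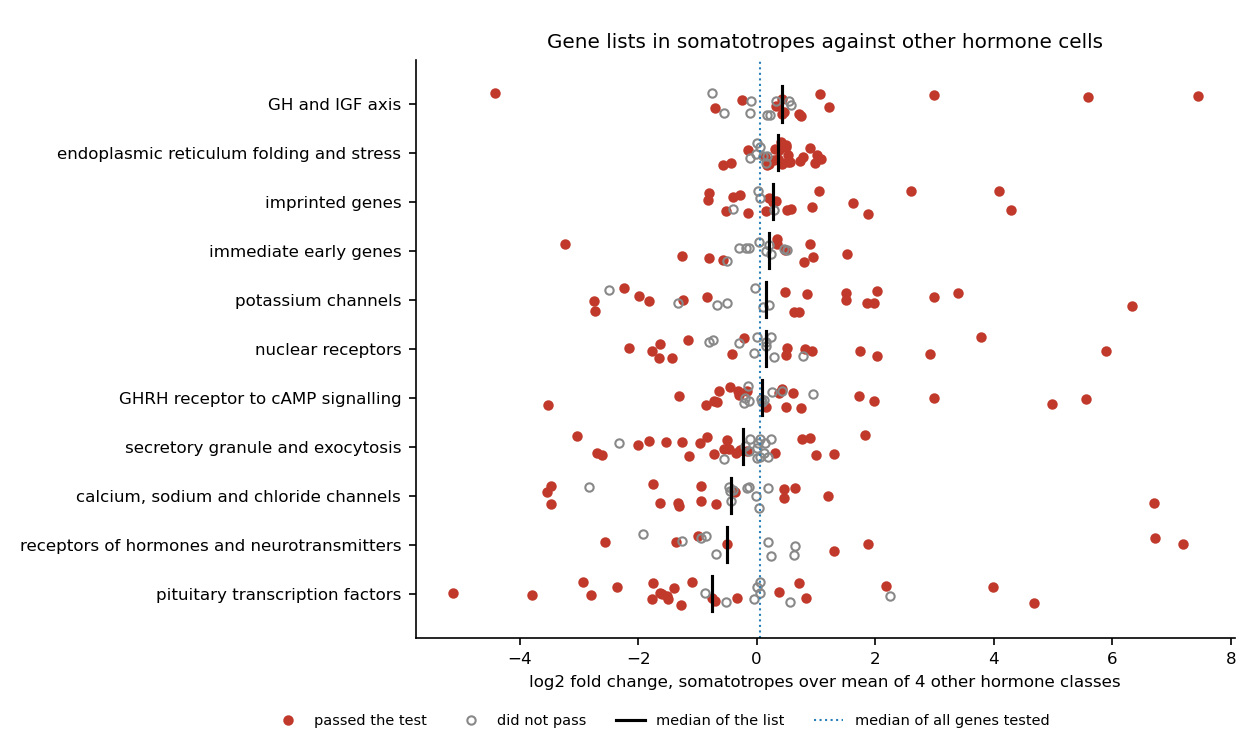
Log2 fold changes of the members of 11 gene lists in somatotropes over the mean of lactotropes, gonadotropes, corticotropes and melanotropes. Filled points passed the test, black lines are list medians, the dotted line is the median of all genes at 0.07, and points beyond 6 are genes at 0 UMIs in at least 1 class, whose fitted value depends on the prior count.

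Lactotropes share the Pou1f1 lineage with somatotropes, and the direct comparison uses the same somatotrope values as the one above. Here 3159 genes were higher in somatotropes (25.8%) and 2884 lower (23.5%), 49.3% in all, with a median of 0.03 over all genes, and 133 and 159 genes at 50 CPM or more differed at least 2-fold in these directions. Ceacam10, Pappa2, Arhgap36 and Ghrhr led the higher genes, at 5.98 ± 0.15, 5.83 ± 0.15, 5.74 ± 0.15 and 5.27 ± 0.11 on the log2 scale, of which Pappa2 and Ghrhr were given as markers. Cidea, a protein of lipid droplets, was at 186 and 273 CPM in somatotropes, against 6.08 and 6.31 in lactotropes (5.21 ± 0.14, adjusted p = 2.02e-20). Its level in gonadotropes, corticotropes and melanotropes was 126 to 196 CPM, so it is lactotropes that stand apart for this gene. Fam46c, a poly(A) polymerase, Wnt10a and Car10 followed at 5.09 ± 0.17, 4.77 ± 0.15 and 4.47 ± 0.15.

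The genes furthest below lactotropes included receptors and a G protein subunit. Gabra2 was at 0.795 and 0.655 CPM in somatotropes, against 60.6 and 49.3 in lactotropes (−6.20 ± 0.17). Agtr1a, the angiotensin II receptor, was at 2.34 and 2.90 CPM, against 144 and 157 (−5.83 ± 0.12, adjusted p = 5.55e-52). Gnai1, an inhibitory G protein subunit, was at 2.14 and 1.69 CPM, against 45.2 and 55.1 (−4.70 ± 0.15). Angpt1, an angiopoietin, and Edil3, a secreted integrin ligand, both among the lactotrope markers, were at −4.89 ± 0.12 and −4.74 ± 0.11, Lrp1b at −4.74 ± 0.14 and Ecel1, an endopeptidase-like protein, at −4.38 ± 0.14.

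Of 27 nuclear receptors 12 were higher in somatotropes and 7 lower. Nr3c1 was higher, at 60.5 and 69.5 CPM in somatotropes, against 3.80 and 3.71 in lactotropes (4.11 ± 0.14, adjusted p = 7.1e-38). The oestrogen receptor Esr1 was lower, at 45.8 and 37.6 CPM, against 89.2 and 87.8 (−1.09 ± 0.08). Prlr, the receptor for the lactotropes' own hormone, was 1.78 ± 0.09 higher in somatotropes. Sstr2 had 204 and 343 UMIs in somatotropes, against 3 and 4 in lactotropes, and Sstr5 364 and 398 UMIs, against 2 and 4.

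Granule genes split, with 14 of 38 higher and 17 lower than in lactotropes. Sytl4 was at 188 and 171 CPM in somatotropes, against 10.8 and 8.72 in lactotropes (log2 fold change 4.21 ± 0.10, adjusted p = 4.69e-47), and Syt1, a calcium sensor of fast release, was at 107 and 107, against 19.8 and 24.3 (2.27 ± 0.09). Chgb, chromogranin B, was at 1163 and 1532 CPM, against 8394 and 8761 (−2.67 ± 0.24). Of 31 transcription factors 14 were lower and 7 higher: Six6 was at −2.59 ± 0.07, Pou1f1 at −0.77 ± 0.08, and Gata2, a zinc finger factor of gonadotropes and thyrotropes, at 14.7 and 15.2 CPM against 0.759 and 0.501 (4.55 ± 0.26). Folding genes, higher than in the mean of all 4 classes, were lower than in lactotropes in 14 of 31 cases and higher in 7, with Sdf2l1 at 168 and 169 CPM in somatotropes, against 417 and 506 in lactotropes (−1.45 ± 0.12). Of 26 potassium channel genes 13 were higher and 5 lower (median 0.97), and genes of the growth hormone and IGF axis higher in 13 of 23 and lower in 2 (median 0.69). Among the 23 imprinted genes 12 were higher and 8 lower, with the zinc finger gene Zim1 at 4.12 ± 0.28 and the neuronal membrane gene Nnat at −1.85 ± 0.06. The cyclic AMP list had 10 higher and 6 lower of 31, the receptors 4 and 7 of 17, the calcium, sodium and chloride channels 8 and 12 of 26, and the immediate early genes 8 and 3 of 21.

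The nearest other class is the Gh-and-Prl-rich cells, which the rule parts from somatotropes by a Prl share of 10% or more. There were 33 and 38 of them. They were deeper, with a median of 8187 and 10312.5 UMIs outside Gh and Prl, against 4930 and 5222.5 in somatotropes, and by the labels 7.6% of barcodes were expected to hold more than 1 cell. No doublet caller was used, and the part of barcodes with 2 cells in this class was not tested. Their median Gh share was 39.6 and 37.5%, and their Prl share 16.5 and 13.9%. In the authors' projection 60.8 and 78.1% of their neighbours were somatotropes.

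Somatotropes had 245 genes higher than Gh-and-Prl-rich cells (2%) and 172 lower (1.4%), 3.4% in all, with a median of 0.13 over all genes tested. The markers are again given with no test. Ghrhr was at 237 and 219 CPM in somatotropes, against 74.6 and 120 in Gh-and-Prl-rich cells (log2 difference 1.15), and Ppp1r14a at 215 and 181, against 88.1 and 90.8 (1.11). Pappa2 was at 89.5 and 113 CPM, against 57.6 and 70.2 (0.67), and Dlk1 at 6239 and 6442, against 3423 and 4101 (0.75). For these 4 genes both libraries of somatotropes were above both of Gh-and-Prl-rich cells. Pou1f1 was at 271 and 281 CPM, against 346 and 260.1, and the libraries overlapped. Rxrg was at 1.10 ± 0.23 and Ceacam10 at 0.996 ± 0.19.

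The gene furthest above Gh-and-Prl-rich cells was Hmgcs1, the synthase at the head of the mevalonate pathway to cholesterol, at 71.5 and 87.7 CPM in somatotropes, against 16.9 and 22.7 in Gh-and-Prl-rich cells (1.97 ± 0.28, adjusted p = 4.39e-07). Idi1, a later enzyme of the same pathway, was at 57.6 and 73.4 CPM, against 10.2 and 22.7 (1.89 ± 0.31). The Gh-and-Prl-rich values rest on 5 and 11 UMIs of Hmgcs1 and 3 and 11 of Idi1. Lactotropes held 26.5 and 27.1 CPM of Hmgcs1 and 20.9 and 23.6 of Idi1. The means of both were lower in Gh-and-Prl-rich cells than in either neighbouring class. For Idi1, library 2 of Gh-and-Prl-rich cells lay within the lactotrope range. With so few UMIs the order against lactotropes is uncertain, and it was not tested. Gstk1, a glutathione transferase, Wnt10a, Arhgap36 and Ddit3 were at 1.48 ± 0.32, 1.34 ± 0.26, 1.28 ± 0.23 and 1.25 ± 0.16. Celf6, an RNA-binding protein, Pcolce, an enhancer of procollagen processing, Card19 and Mrap2, an accessory protein of melanocortin receptors, were at 1.33, 1.31, 1.29 and 1.2, and their calls were lost when the deepest 7.6% of cells were left out.

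The genes furthest below were higher still in lactotropes. Agtr1a was at 2.34 and 2.90 CPM in somatotropes, against 67.8 and 64.0 in Gh-and-Prl-rich cells (log2 fold change −4.62 ± 0.31, adjusted p = 1.26e-19), and 144 and 157 in lactotropes. Edil3 (−3.57 ± 0.32), Lgals1 (−3.24 ± 0.28), Hepacam2, a cell adhesion molecule (−3.06 ± 0.24), Asb4, an imprinted ubiquitin ligase subunit (−2.91 ± 0.20), and Ramp1, which pairs with a receptor for calcitonin gene-related peptide (−2.42 ± 0.30), followed the same order. The neuronal tubulin Tubb3, the coactivator Cited2, the calmodulin regulator Pcp4 and the nuclear factor Nfix were at −1.86, −1.83, −1.65 and −1.63. All 51 genes at least 4-fold higher in somatotropes than in lactotropes, and all 47 at least 4-fold lower, had a level in Gh-and-Prl-rich cells between the 2 classes. On a scale from 0 for lactotropes to 1 for somatotropes, the median gene of the 51 lay at 0.717 and of the 47 at 0.362. These genes were chosen by the difference between the 2 classes, and no test was made.

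Few list members passed in this comparison. Of 38 granule genes 7 were lower and 1 higher, of 31 transcription factors 5 and 1, and of 23 imprinted genes 4 and 3. Among immediate early genes 4 of 21 were higher, among folding genes 3 of 31, among potassium channels 3 of 26, and in the cyclic AMP and growth hormone lists 2 of 31 and 2 of 23, with none lower. Of the nuclear receptors 1 was higher and 2 lower of 27, of the other receptors 0 and 1 of 17, and of the calcium, sodium and chloride channels 0 of 26. When the deepest 7.6% of the cells of each library were left out, 313 genes were higher and 44 lower, and with DESeq2 58 and 294, so the balance between the directions differed with these settings.

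**Figure D4:**
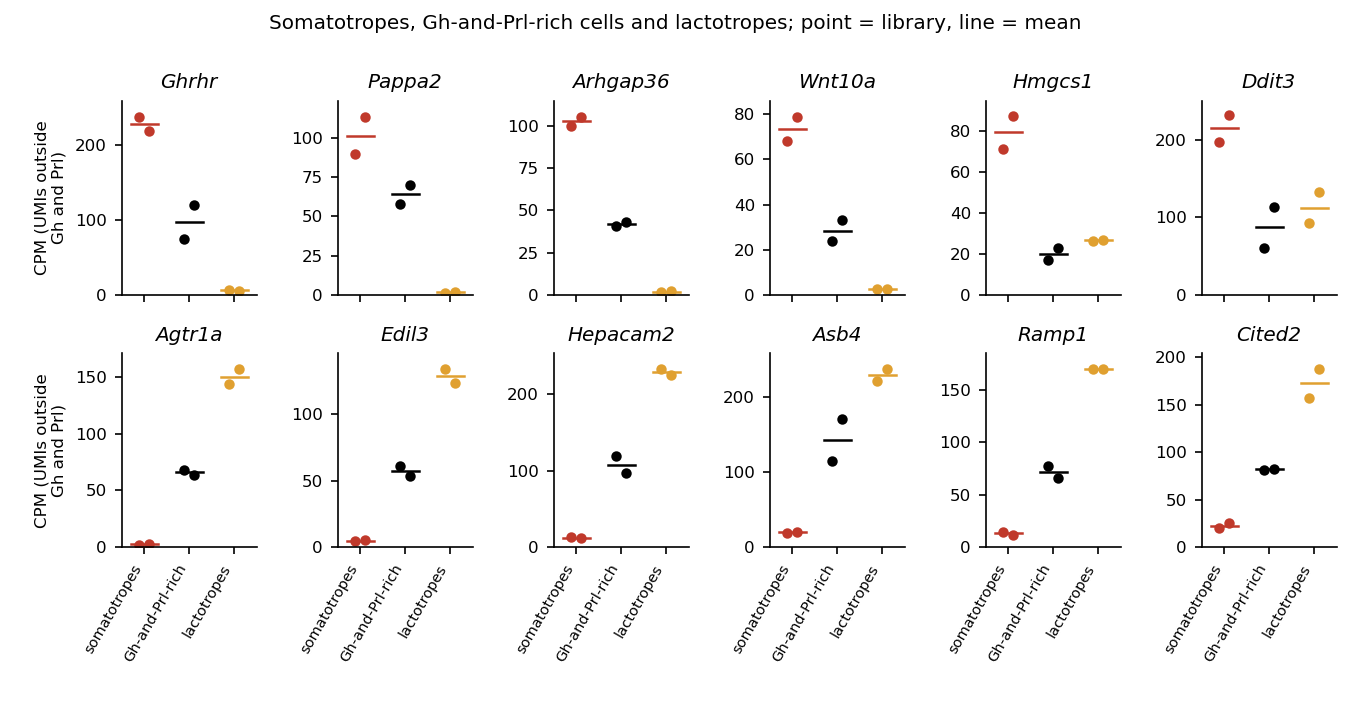
Levels of 12 genes in CPM outside Gh and Prl, TMM-scaled, in somatotropes, Gh-and-Prl-rich cells and lactotropes, with a point for each library and a line at the mean of 2 libraries. Agtr1a, Edil3, Hepacam2, Asb4, Ramp1 and Cited2 climb from somatotropes to lactotropes, and Ghrhr, Pappa2, Arhgap36 and Wnt10a do the reverse. Hmgcs1 and Ddit3 have their lowest mean of the 3 in Gh-and-Prl-rich cells, for Hmgcs1 from only 5 and 11 UMIs.

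Cells rich in Gh and Tshb numbered 19 in library 1 and 7 in library 2, too few for a test in library 2, so their values are a description. They lay among somatotropes in the projection, with 91.9 and 84.8% of their neighbours somatotropes. On the unscaled measure Ghrhr was at 166 and 222 CPM, from 22 and 11 UMIs, against 276 and 251 in somatotropes, and Dlk1 at 8497 and 7921, against 7257 and 7391. Dlk1 was also high in thyrotropes, at 4680 and 4606 CPM.

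Somatotropes also varied among themselves. In cells thinned to 2000 UMIs outside Gh and Prl, the variance over the mean had a median of 1.02 over 2846 genes, where 1 is the value of pure counting, and 66 genes were over 2 in both libraries. Apart from the globin genes, which red blood cells make, the genes of widest spread included Malat1, the metallothionein Mt1, the heat shock genes Hspa1a and Dnajb1 and the immediate early genes Fos and Jun. The summed share of immediate early genes in UMIs outside Gh and Prl had a median of 0.157% in library 1 and 0.264% in library 2.

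To see what went with more or less Gh, the somatotropes of each library were divided by Gh share into 3 equal groups, low-Gh, mid-Gh and high-Gh, whose median Gh shares were 51.9 and 51.4%, 62.1 and 61.3%, and 67.6 and 66.3% of all UMIs. Their median depths outside Gh and Prl were close, at 4719.5 and 5089, 5241.5 and 5487.5, and 4854.5 and 5139 UMIs. The groups were not matched in depth, however. With Gh and Prl counted, the medians were 9692.5 and 10580 UMIs in the low-Gh group and 15239.5 and 15419 in the high-Gh group. At least 3000 UMIs outside Gh and Prl were held by 1036 of 1158 and 1100 of 1153 low-Gh cells. In the high-Gh group 899 of 1158 and 1026 of 1153 cells held as many. In the high-Gh group 1447 of 12503 genes were higher than in the low-Gh group (11.6%) and 1611 lower (12.9%), 24.5% in all, with a median of 0.00 on the log2 scale. At 50 CPM or more, 1 gene was 2-fold higher and 62 were 2-fold lower, so the differences on the higher side were small.

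Ghrhr, Pappa2 and Dlk1 were among the higher genes. They are markers chosen with results of these data known, and Gh share is a value that chose the cells, so no p-value is given for them. Ghrhr was at 221 and 209 CPM in the low-Gh group, 282 and 264 in the mid-Gh and 325 and 294 in the high-Gh group (high-Gh over low-Gh 0.53 ± 0.04). Pappa2 was at 64.6 and 102, 113 and 140 and 137 and 155 CPM in the same order (0.81 ± 0.09), and Dlk1 at 5975 and 6301, 7528 and 7889 and 8226 and 8321 (0.43 ± 0.02). Sstr2, Creb3l1 and Crem were at 0.74 ± 0.17, 0.58 ± 0.12 and 0.51 ± 0.05. Without the library term the calls of Pappa2, Sstr2, Creb3l1 and Crem were lost, and those of Sstr2 and Creb3l1 were lost with DESeq2 too. The levels of Ghrhr and Dlk1 climbed with Gh share in both libraries, without overlap between the high-Gh and low-Gh groups.

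The 8 genes furthest up in the high-Gh group were Pycr1, an enzyme of proline synthesis (0.92 ± 0.09), Kdelr3, a receptor that returns proteins to the endoplasmic reticulum (0.91 ± 0.08), Cd79b, a part of the B cell receptor (0.90 ± 0.10), Rab3d (0.88 ± 0.09), Fkbp11, a folding enzyme of the endoplasmic reticulum (0.88 ± 0.04), the nicotinic receptor subunit gene Chrnb3 (0.87 ± 0.09), Tcerg1l (0.86 ± 0.10) and Mfge8, a secreted glycoprotein (0.84 ± 0.09), and the calls of Chrnb3 and Tcerg1l were lost without the library term. Fkbp11 was at 226 and 232 CPM in the low-Gh, 356 and 352 in the mid-Gh and 426 and 417 in the high-Gh group. Pdia6, a disulfide isomerase, Sec61b, and the granule genes Resp18 and Ptprn were at 0.37 ± 0.04, 0.24 ± 0.03, 0.45 ± 0.03 and 0.47 ± 0.04, and Chga at −0.30 ± 0.07. The calls of Ptprn and Chga were lost without the library term.

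The stress genes of the endoplasmic reticulum were on the other side, so that the folding list had 8 of 31 higher and 9 lower. Hspa5, the chief chaperone of that organelle, was at 1564 and 1631 CPM in the low-Gh group, 974 and 993 in the mid-Gh and 921.8 and 925.5 in the high-Gh group (high-Gh over low-Gh −0.79 ± 0.03, adjusted p = 1.12e-31). The stress transcription factors Ddit3 and Atf4 were at −2.06 ± 0.25 (adjusted p = 0.0441) and −0.81 ± 0.05, and Herpud1 at −0.89 ± 0.04. Ddit3 was at 384 and 514 CPM in the low-Gh group, 181 and 149.97 in the mid-Gh and 102 and 112 in the high-Gh group.

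Of 21 immediate early genes 20 were lower in the high-Gh group and 0 higher, with a median of −1.65. Fosb was at 140.1 and 209 CPM in the low-Gh group, 32.9 and 46.0 in the mid-Gh and 18.3 and 28.3 in the high-Gh group (−2.91 ± 0.08, adjusted p = 2.89e-37). Fos was at 1191 and 1677, 487 and 860 and 332 and 556 CPM in the same order (−1.71 ± 0.12, adjusted p = 0.0146). Atf3, Egr1, Junb and Jun were at −2.27 ± 0.07, −1.84 ± 0.08, −1.82 ± 0.12 and −1.57 ± 0.15. Without the library term, which ended the calls of Fos, Egr1 and Jun, 10 of 21 were lower. With DESeq2 18 of 21 were lower, with thinned cells 18 of 19 tested, and without cells that held non-hormone markers 20 of 21.

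Of 28 transcription factors 17 were lower in the high-Gh group and 0 higher, and of 25 nuclear receptors 11 and 1. These counts depended on the setting: 12 transcription factors were lower without the library term, 8 with DESeq2 and 5 of 21 tested with thinned cells, and 4 nuclear receptors were lower under each of these settings. The early-response receptor Nr4a1 was at −1.66 ± 0.06, and Zbtb20, a repressor needed for lactotrope formation, at −0.31 ± 0.04. The growth hormone and IGF axis had 2 members higher and 13 lower of 22, with 7 lower without the library term and 8 with DESeq2 or thinned cells. Igf1 was at −1.12 ± 0.13 and the binding protein gene Igfbp3 at −3.11 ± 0.16, and the calls of Igf1 and Nr4a1 were lost without the library term. The granule list had 11 higher and 10 lower of 38, the cyclic AMP list 4 and 4 of 31, imprinted genes 7 and 5 of 23, potassium channels 3 and 2 of 22, the other channels 2 and 8 of 23, and receptors 1 and 2 of 9. In each of these lists fewer members passed without the library term, with DESeq2 and with thinned cells.

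Markers of other cell types moved with these groups. The summed unscaled level of the 7 stem cell markers was 30.05 and 23.9 CPM in the high-Gh group, against 239 and 171 in the low-Gh group, and that of the 5 endothelial markers 26.5 and 16.7, against 130.0 and 126. For macrophages it was 21.3 and 21.4, against 76.5 and 44.9, for pituicytes, the glia of the posterior lobe, 2.34 and 2.30, against 13.7 and 19.3, and for red blood cells 340.1 and 324, against 3213 and 2702. The fibroblast markers were level, at 85.5 and 118 against 138 and 78.1. Each list had 0 markers at 0 in both groups. The median mitochondrial share of UMIs outside Gh and Prl was 5.13 and 5.2% in the high-Gh group, against 4.42 and 4.39% in the low-Gh group. Of all UMIs, Gh included, it was 1.64 and 1.74%, against 2.19 and 2.13%, a share that more Gh lowers by itself. Their part in the differences between the groups was not tested.

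The 8 genes furthest down in the high-Gh group were Fosb, given above, the globin genes Hbb-bt (−4.09 ± 0.17), Hbb-bs (−3.10 ± 0.33), Hba-a2 (−3.08 ± 0.21) and Hba-a1 (−3.07 ± 0.20), Sparc of the extracellular matrix (−2.88 ± 0.14), Plvap of endothelial cells (−2.59 ± 0.12) and the interferon-induced Ifitm3 (−2.56 ± 0.11). The globin genes are near-identical in pairs, so reads may be split between copies. An alternative left out cells that held 3 or more UMIs of a non-hormone marker list. These lists hold the 4 globin genes and Plvap, so that the filter itself acts on their levels, and their log2 differences were then 0.31 for Hbb-bt, 0.29 for Hbb-bs, 0.19 for Hba-a2, 0.50 for Hba-a1 and 0.22 for Plvap. The calls of Ifitm3 and Igfbp3 were lost. The growth hormone and IGF list then had 7 lower in place of 13. The counts over all genes were then 1209 higher and 1313 lower.

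**Figure D5:**
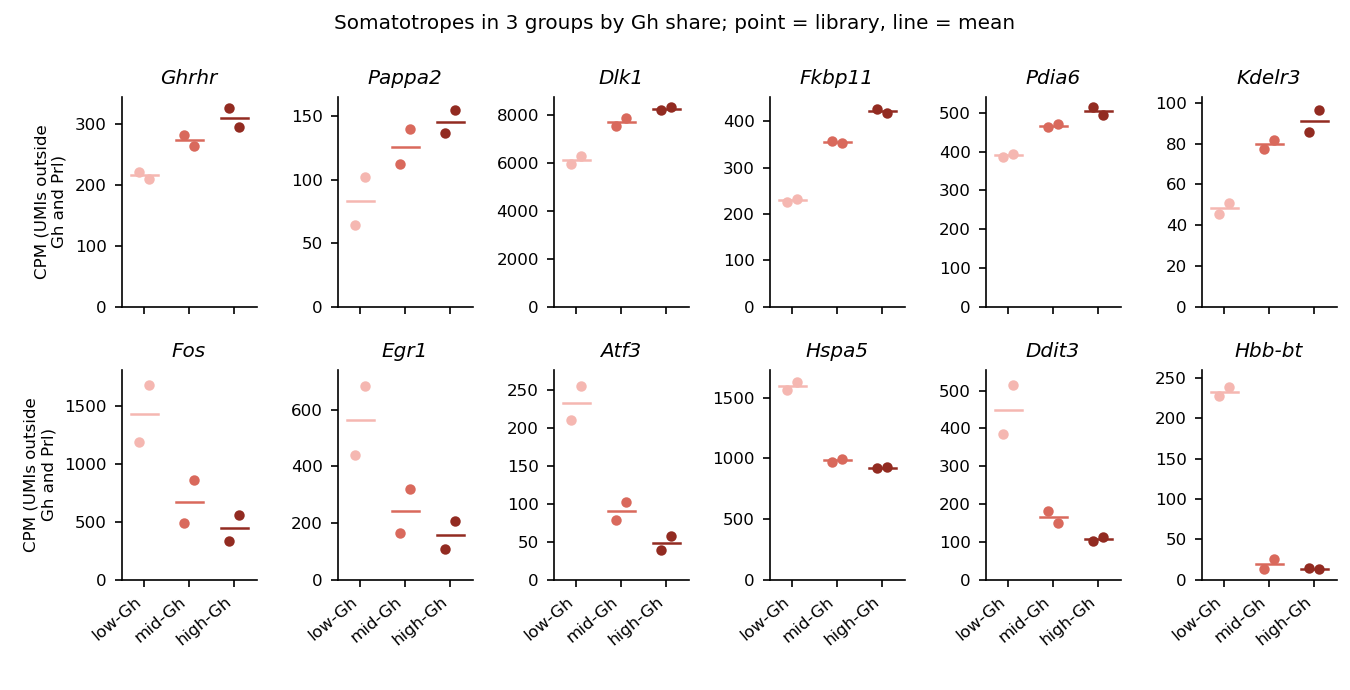
Levels of 12 genes in CPM outside Gh and Prl, TMM-scaled, in the low-Gh, mid-Gh and high-Gh groups of somatotropes, with a point for each library and a line at the mean of 2 libraries. Ghrhr, Pappa2, Dlk1, Fkbp11, Pdia6 and Kdelr3 climb from the low-Gh to the high-Gh group, while Fos, Egr1, Atf3, Hspa5 and Ddit3 decline, as does Hbb-bt, which was at 0.31 in the other direction without cells that held non-hormone markers, a filter that uses this gene.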

How the data were processed

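According to the labels, 2 pools of 3 glands were profiled with 10x Genomics 3' v2 chemistry, with 17400 cells of 71 to 82% viability loaded and 10000 targeted per pool. The authors deposited 1 matrix of raw UMI counts for both pools. The submitters' processing notes name Cell Ranger, STAR and mm10; their versions were not given in the sources used here. The authors' deposited t-SNE coordinates, a score with no unit, were used to find neighbours. The matrix lists 28693 genes and 13663 barcodes with 70813117 and 78861988 UMIs, and the number that ends each barcode was taken as the pool.

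Cells that had 250 or more genes and no more than 20% of UMIs from mitochondrial genes were classed by hormone UMIs. Somatotropes had over 30% Gh, below 10% Prl, 1% Pomc and 1% Cga, under 10 Tshb UMIs and under 6 UMIs of 8 dividing-cell genes. Other classes were Gh-and-Prl-rich (over 30% Gh, at least 10% Prl), Gh-and-Tshb-rich (at least 10 Tshb UMIs), lactotropes (at least 10% Prl, below 10% Gh), gonadotropes (at least 1% Cga and 10 UMIs of Lhb and Fshb), thyrotropes (at least 1% Cga and 10 Tshb UMIs) and Pomc cells (at least 1%), split into melanotropes (at least 10 UMIs of Pcsk2, Pax7 and Oacyl) and corticotropes. Endothelial cells held at least 10 UMIs of 5 markers. No doublet caller was run.

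Cells are not replicates, so the counts of a class were summed within each library, with totals outside Gh and Prl, and tested with edgeR 4.0.16 in R 4.3.3 (quasi-likelihood, robust, TMM, filterByExpr, library as a block because the classes of a library come from the same pool, Benjamini-Hochberg adjustment, threshold 0.05). Classes needed 10 cells in each library; their fit had 12 columns, 12251 genes and 5 residual degrees of freedom, and that of the 3 Gh groups 6 columns, 12503 genes and 2. Rule genes and class-defining genes were left out of the tests. DESeq2 1.42.0 was an alternative.

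The genes named had to pass the test, move the same way in both libraries, reach 50 CPM on the higher side, be no predicted, ribosomal or mitochondrial gene, and were ranked by log2 fold change: 15 highest and 10 lowest against the other classes, 10 and 10 against Gh-and-Prl-rich cells, 8 and 8 against lactotropes and between the high-Gh and low-Gh groups, the 10 with the largest ratio to the next class, and list members and markers. A few of them are not reported here. The members, lists and rules were chosen with earlier results of these data known. Intervals of shares and ratios are exact at 95% and cover counting error only. In bulk sums of a class, fewer cells with a transcript and less of it per cell cannot be told apart.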

Additional observations from a re-analysis of the deposited data

How the results depend on the processing

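Against the other hormone classes, leaving out the TMM factor gave 6918 genes higher and 1280 lower, and summing the other classes gave 3566 higher and 4102 lower. The share of higher genes among calls was 58.4% in the main analysis, 84.4% without the TMM factor, 46.5% with DESeq2 (2304 and 2650) and 46.5% with summed classes. Against lactotropes it was 52.3% and, without the TMM factor, 64.4%. Against Gh-and-Prl-rich cells it was 58.8%, from 245 higher and 172 lower. It was 16.5% with DESeq2 (58 higher, 294 lower), 29.3% without the TMM factor (92 higher), 33.5% with all genes in the totals (105 higher), 79.2% with no filter on low counts (626 higher), 50.2% without the library as a replicate block (138 higher) and 87.7% without the deepest 7.6% of cells (44 lower). Between the high-Gh and low-Gh groups, DESeq2 gave 342 higher and 427 lower, no replicate block 370 and 697, and cells thinned to 1000 UMIs 297 and 363. The cause of these changes was not tested.

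Pou1f1 was at −0.14 with the other classes summed. Without cells holding non-hormone markers, an alternative chosen after seeing the data for these groups and one that filters on these very genes, Hbb-bt was at 0.31, Hbb-bs at 0.29, Hba-a2 at 0.19, Hba-a1 at 0.50 and Plvap at 0.22. Of the alternatives for 186 named gene results, 1808 kept the call, 47 lost it and 6 reversed. All 372 values from 1 library kept their direction. For the ranked genes the naming rule had required this, so it is no check of them. Without the replicate block, Chrnb3, Tcerg1l, Creb3l1, Crem, Sstr2, Pappa2, Ppp1r14a, Ptprn, Chga, Fos, Egr1, Jun, Nr4a1 and Igf1 lost their call between the Gh groups, and Ddit3 and Tubb3 against Gh-and-Prl-rich cells.

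With 1 library there are no residual degrees of freedom, so leaving out a library gave values only. Genes 2-fold higher were then 56 to 110 against Gh-and-Prl-rich cells (44 with both) and 2 to 7 between the Gh groups (1 with both). The somatotrope share was 44.0% at over 50% Gh. Shares of somatotropes with a UMI, thinned to 2000 and unthinned, were 40.2 and 67.9% for Ghrhr, 46.7 and 74.8% for Pou1f1, 34.5 and 60.8% for Ppp1r14a, 19.4 and 39.6% for Pappa2 and 99.969 and 99.957% for Dlk1, so depth limits these shares. The comparison with Gh-and-Tshb-rich cells was not run, since library 2 held 7 of them.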
